A study of Mus musculus with 12 samples.

Results

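The 9 genes Glul, Glud1, Bcat2, Bckdha, Bckdhb, Dbt, Bckdk, Ppm1k and Hibadh encode enzymes of glutamine synthesis and of branched-chain amino acid breakdown. They were taken by symbol from a table of 54532 genes, where each symbol stood in 1 row. All 9 passed the filter of a mean of at least 0.5 FPKM, which left 12754 genes for testing. FPKM are fragments per unit of gene length, here scaled between libraries by median-of-ratios factors and not by total reads. RNA was taken from calf (gastrocnemius) muscle of ICR SCID mice, all female, an immunodeficient strain. In the TL group, mice bore HT1080 tumours under the skin, grown from a human fibrosarcoma line, and were given selpercatinib by gavage daily at 30 mg/kg for 19 days. The TV group bore these tumours on vehicle, and the NTV group was tumour-free on vehicle. Each group had 4 libraries, stated as biological replicates. Selpercatinib blocks the kinase RET. No age or genotype beyond the strain is given, and all tumour data rest on 1 cell line.

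Skeletal muscle is the main site where the branched-chain amino acids leucine, isoleucine and valine are first broken down. The mitochondrial aminotransferase encoded by Bcat2 moves their amino group onto 2-oxoglutarate, which yields glutamate and branched-chain ketoacids. The branched-chain ketoacid dehydrogenase complex then commits the ketoacids to oxidation. Bckdha and Bckdhb encode the E1 alpha and E1 beta subunits of this complex and Dbt its E2 core. The kinase encoded by Bckdk phosphorylates and inactivates E1, and the phosphatase encoded by Ppm1k reverses this. Hibadh encodes 3-hydroxyisobutyrate dehydrogenase, a later step of valine breakdown. Glutamate can be joined with ammonia to form glutamine by glutamine synthetase, encoded by Glul, or be converted with 2-oxoglutarate by glutamate dehydrogenase, encoded by Glud1. Wasting muscle releases glutamine, and Glul is a known target of glucocorticoids in muscle.

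The windows around the transcription start sites of Glul, Bcat2 and Bckdhb are shown because Glul had the largest difference of the 9 in TV against NTV, Bcat2 opens the pathway and Bckdhb had the smallest difference. Each holds 250 bases before the start site and 50 after it, from RefSeq on build GRCm38.p6, printed 5′ to 3′ on the strand of the gene. All 3 lie on the plus strand, at chr1:153899679-153899978 for Glul, chr7:45569903-45570202 for Bcat2 and chr9:83924887-83925186 for Bckdhb. Capitals mark matches to any of 7 short motifs on either strand.
Glul: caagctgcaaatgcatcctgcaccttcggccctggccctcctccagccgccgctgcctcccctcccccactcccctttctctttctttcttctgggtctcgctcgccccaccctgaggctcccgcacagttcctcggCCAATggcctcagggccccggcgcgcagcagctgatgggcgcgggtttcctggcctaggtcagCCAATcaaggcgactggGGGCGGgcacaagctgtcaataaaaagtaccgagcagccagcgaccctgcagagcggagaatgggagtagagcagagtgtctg
Bcat2: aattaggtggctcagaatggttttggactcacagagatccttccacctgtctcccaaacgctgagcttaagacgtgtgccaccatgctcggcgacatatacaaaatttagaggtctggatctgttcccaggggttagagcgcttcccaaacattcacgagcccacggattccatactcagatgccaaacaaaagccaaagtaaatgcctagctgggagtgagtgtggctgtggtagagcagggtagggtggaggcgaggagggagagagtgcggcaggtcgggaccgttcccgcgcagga
Bckdhb: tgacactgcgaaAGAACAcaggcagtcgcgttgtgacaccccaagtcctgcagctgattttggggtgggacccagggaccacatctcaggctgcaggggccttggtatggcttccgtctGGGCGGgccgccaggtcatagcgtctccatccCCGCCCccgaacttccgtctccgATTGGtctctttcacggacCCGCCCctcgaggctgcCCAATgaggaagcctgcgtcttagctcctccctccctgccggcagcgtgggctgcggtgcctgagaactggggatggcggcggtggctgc
The motifs were AGAACA, a hexamer bound by the glucocorticoid receptor, GTAAACA, a FoxO site, AAGGTCA, a site of estrogen-related receptors, CCAAT, the GC box GGGCGG, the TATA box TATAAA and the E-box CACGTG. None of the matches in these 3 windows overlapped another. Glul had CCAAT at 113 and 50 bases before its start and a GC box at 33 bases before it. Bckdhb had 2 CCAAT boxes, 3 GC boxes and 1 glucocorticoid receptor hexamer, and Bcat2 had no match. Windows were found for 8 of the 9 genes, with Dbt the one without. CCAAT stood in 5 of the 8 and in 37.4% of all 32851 windows, and the GC box in 5 of the 8 and in 35.7% of all windows. The glucocorticoid receptor hexamer stood in the windows of Bckdhb and Bckdk, against 19.0% of all windows. The FoxO site stood in that of Hibadh (3.65% of all), and the TATA box in that of Bckdk (13.6%). The estrogen-related receptor site (4.72% of all) and the E-box (7.15%) stood in none of the 8. Such matches are descriptions of letters and not of bound sites.

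Libraries held between 14939830 and 23580603 gene-assigned reads. The tissue label was checked against 8 muscle fibre markers, whose summed level was 39567 to 48718 FPKM in TL, 38298 to 76931 in TV and 46523 to 59473 in NTV. Some libraries stood apart. TL replicates 1 and 5 lay at -31.9 and -32.6 on principal component 2, where all other libraries lay between -3.07 and 16.6. Ucp1, the brown fat uncoupling protein, was at 58.3 FPKM in TL replicate 1, 3.97 in TL replicate 5 and 53.4 in NTV replicate 5, and at most 1.06 elsewhere.

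All levels below are FPKM, which divide reads by a gene length, so the order between genes depends on the lengths used. These ran from 1805 bases for Bckdhb to 10179 for Hibadh. Hibadh had 1826 to 3104 reads per library and Dbt 463 to 1224, though their mean FPKM were close. Whether all of each length is transcribed in muscle was not tested. Glul was the most abundant of the 9 in every library, with a mean of 200 FPKM over the 12, and its lowest library lay above the highest of every other member. Bckdk followed at a mean of 40.0 FPKM and Glud1 at 35.9. These neighbours did not differ beyond their spread, since Bckdk was the higher in 8 of 12 libraries. Bckdha averaged 27.2 and Bckdhb 23.2 FPKM, in that order in 9 of 12 libraries. Bcat2 at 15.8, Dbt at 15.2 and Hibadh at 15.1 FPKM overlapped, and Ppm1k was lowest in every library at a mean of 4.41 FPKM. Reads behind a single value ranged from 255 for Ppm1k to 33414 for Glul.

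**Figure D1:**
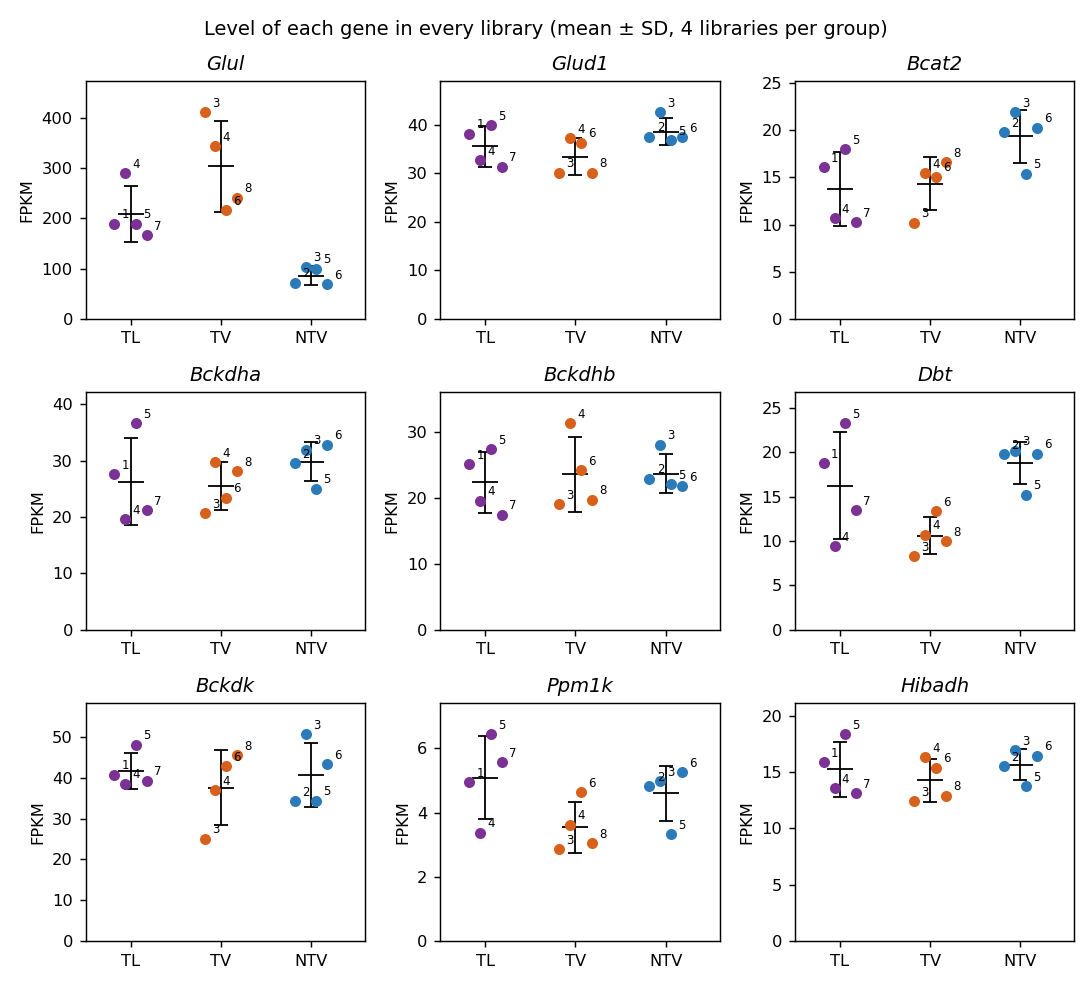
FPKM of each of the 9 genes (vertical axes, from 0) in TL, TV and NTV muscle. Points are single libraries with their replicate number, and bars are mean ± SD of 4 libraries. All 4 TV and all 4 TL values of Glul lie above the highest NTV value, whereas the groups overlap for most other genes.

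Glul was higher in muscle of both tumour-bearing groups than in muscle of tumour-free mice. It lies on chromosome 1 at 153899944 to 153909723 of mm10, on the plus strand, and its principal transcript has 7 exons in GENCODE M21. TL libraries had 189, 291, 190 and 166 FPKM (replicates 1, 4, 5 and 7). TV libraries had 413, 344, 217 and 242 FPKM (replicates 3, 4, 6 and 8). NTV libraries had 71.5, 104, 99.5 and 68.5 FPKM (replicates 2, 3, 5 and 6). Neither tumour-bearing group overlapped the tumour-free one, and TL and TV overlapped each other, with TL replicate 4 above TV replicates 6 and 8. The means were 209 ± 55.7 FPKM in TL, 304 ± 91.1 in TV and 85.9 ± 18.5 in NTV (SD, n = 4 each).

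Changes are log2 differences of FPKM + 0.5 with their SE from limma's moderated test, with p-values adjusted over all genes by Benjamini-Hochberg and a call made under 0.05. In TV against NTV, Glul was higher by 1.79 ± 0.24 (3.47-fold, 95% interval 1.27 to 2.31, adjusted p = 0.00122), higher in 4 of 4 TV libraries than in any NTV library. Of all genes tested, 99.2% had a smaller absolute difference. It was higher by 1.27 ± 0.24 (2.41-fold, 0.75 to 1.79, adjusted p = 0.0105) in TL against NTV, and 98.3% of genes had a smaller difference. The estimate for TL against TV was -0.52 ± 0.24 (-1.04 to -0.005, unadjusted p = 0.0483, adjusted p = 0.307), which was not called. These comparisons share libraries and are not independent. Without TL replicates 1 and 5 the TL against NTV difference was 1.38 (adjusted p = 0.0251), and with the 3 libraries above 2 FPKM of Ucp1 (called Ucp1-high) dropped it was 1.45 (adjusted p = 0.043). Both calls of Glul also held when any 1 library of the 2 groups was left out, with adjusted p of at most 0.00529 in TV against NTV and 0.0336 in TL against NTV. The processed pseudogene Glns-ps1 had a mean of 0.291 FPKM, and how reads matching both were assigned is not given in the sources used here. Teddm2 overlaps the 5′ end of Glul on the other strand, at a mean of 1.53 FPKM. Its values were also higher in both tumour-bearing groups, at 1.14 to 2.35 FPKM in TL, 1.87 to 3.32 in TV and 0.335 to 0.632 in NTV. Whether reads of the overlap add to either gene was not tested.

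Glud1 was not called in any comparison (chromosome 14, 34310727 to 34345265). TL libraries had 38.2, 32.8, 39.9 and 31.4 FPKM, TV libraries 30.1, 37.3, 36.3 and 30.2, and NTV libraries 37.6, 42.7, 36.9 and 37.4. Groups overlapped in every comparison. The differences were 0.09 ± 0.11 in TL against TV, -0.12 ± 0.11 in TL against NTV and -0.21 ± 0.11 in TV against NTV (adjusted p = 0.178). The 95% interval of the last was -0.45 to 0.03. Its processed pseudogene Glud-ps averaged 0.556 FPKM.

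Dbt, the E2 core of the ketoacid dehydrogenase complex, was the one member that fell in TV against NTV (chromosome 3, 116513070 to 116549981, plus strand, 11 exons in the principal transcript). TV libraries had 8.31, 10.7, 13.4 and 9.97 FPKM, and NTV libraries 19.8, 20.2, 15.2 and 19.8. The highest TV value was below the lowest NTV value. The difference was -0.81 ± 0.24 (95% interval -1.32 to -0.29, adjusted p = 0.0279), with means of 10.6 ± 2.11 FPKM in TV and 18.8 ± 2.35 in NTV. Leaving out TV replicate 3, 4 or 8, or NTV replicate 2, 3 or 6, took the call away (adjusted p up to 0.0762), with differences between -0.92 and -0.70, and it also ended with no filter on low values (adjusted p = 0.0608). Without the Ucp1-high libraries it was -0.90 (adjusted p = 0.0103). That exclusion drops NTV replicate 5, the lowest NTV library, which widens the difference. TL libraries had 18.8, 9.44, 23.3 and 13.4 FPKM, a wider spread than in the other groups, with replicate 1 within and replicate 5 above the NTV range, replicate 4 within the TV range and replicate 7 between the ranges. Dbt in TL was not called against TV (0.54 ± 0.24, unadjusted p = 0.0421, adjusted p = 0.294) or against NTV (-0.27 ± 0.24, adjusted p = 0.492). Without TL replicates 1 and 5 the difference from TV was 0.11 and that from NTV -0.70 (adjusted p = 0.0545).

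Neither E1 subunit was called in any comparison. Bckdha (chromosome 7, 25629946 to 25658981, minus strand) had 27.6, 19.6, 36.6 and 21.2 FPKM in TL, 20.6, 29.8, 23.4 and 28.1 in TV, and 29.5, 31.96, 25.0 and 32.8 in NTV. Bckdhb (chromosome 9, 83925145 to 84124240, plus strand) had 25.1, 19.6, 27.4 and 17.5 FPKM in TL, 19.1, 31.3, 24.2 and 19.7 in TV, and 22.9, 28.04, 22.1 and 21.8 in NTV. Values of all groups overlapped for both genes. In TV against NTV Bckdha differed by -0.23 ± 0.19 (adjusted p = 0.393, 95% interval -0.64 to 0.18) and Bckdhb by -0.03 ± 0.18 (adjusted p = 0.93, -0.41 to 0.36). For TL against TV the differences were 0.01 ± 0.19 and -0.07 ± 0.18.

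The level of E2 was also set against that of E1 alpha within each library. Dbt over Bckdha was 0.68, 0.48, 0.64 and 0.63 in TL, 0.40, 0.36, 0.57 and 0.35 in TV, and 0.67, 0.63, 0.61 and 0.60 in NTV. Every TV library lay below every NTV library, and TL replicate 4 alone of the TL libraries lay within the TV range. The mean ratio was 0.422 ± 0.102 in TV and 0.629 ± 0.0304 in NTV (SD, n = 4 each, exact two-sided permutation p = 0.0286, the smallest that 4 against 4 libraries allow). It was 0.608 ± 0.0862 in TL, against 0.422 ± 0.102 in TV (exact permutation p = 0.0571). Neither passed adjustment over the 6 ratio tests (adjusted p = 0.171 for each). With 4 against 4 libraries even the smallest possible p of 0.0286 did not pass, so this adjustment cannot decide. The ratio also reuses the Dbt values compared above and is not separate support. A ratio of FPKM within a library does not depend on how libraries were scaled.

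Neither regulator of the complex was called in any comparison. Bckdk, the inactivating kinase (chromosome 7, 127904082 to 127910221), had 40.8, 38.6, 48.1 and 39.3 FPKM in TL, 25.1, 37.0, 42.9 and 45.6 in TV, and 34.2, 50.7, 34.5 and 43.4 in NTV. TV replicate 3 was the lowest and NTV replicate 3 the highest, and all groups overlapped. Ppm1k, the activating phosphatase (chromosome 6, 57506502 to 57535468), had 4.95, 3.37, 6.44 and 5.57 FPKM in TL, 2.85, 3.61, 4.63 and 3.05 in TV, and 4.81, 4.98, 3.32 and 5.26 in NTV. In TL against TV, Ppm1k differed by 0.46 ± 0.20 (unadjusted p = 0.0388, adjusted p = 0.287) and Bckdk by 0.18 ± 0.19 (adjusted p = 0.692). In TV against NTV, Ppm1k differed by -0.34 ± 0.20 (adjusted p = 0.225) and Bckdk by -0.13 ± 0.19 (adjusted p = 0.649). Bckdk over Ppm1k averaged 8.55 ± 1.98 in TL, 10.8 ± 2.81 in TV and 8.98 ± 1.57 in NTV, with exact permutation p of 0.2 for TL against TV and 0.343 for TV against NTV (n = 4 each).

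Bcat2, the first enzyme of the pathway, had lower means in both tumour-bearing groups without a call (chromosome 7, 45570153 to 45589711). TL libraries had 16.1, 10.7, 18.0 and 10.2 FPKM, TV libraries 10.2, 15.5, 15.1 and 16.6, and NTV libraries 19.8, 22.0, 15.4 and 20.3. NTV replicate 5, the tumour-free library with high Ucp1, was the lowest NTV library and the one that overlapped the other groups. The differences were -0.43 ± 0.20 in TV against NTV (adjusted p = 0.137) and -0.51 ± 0.20 in TL against NTV (unadjusted p = 0.0281, adjusted p = 0.131). Without the Ucp1-high libraries both passed the threshold, at -0.53 (adjusted p = 0.0475) and -0.95 (adjusted p = 0.029). Without TL replicates 1 and 5 the second was -0.85 (adjusted p = 0.0269). The libraries dropped were the lowest of NTV (replicate 5) and the highest of TL (replicates 1 and 5), so wider differences followed from the choice of libraries. Dropping the Ucp1-high libraries left TL replicates 4 and 7 against NTV replicates 2, 3 and 6. The difference between TL and TV was -0.08 ± 0.20. Its cytosolic counterpart Bcat1 was close to absent, with 0 to 16 reads in a library and at most 0.085 FPKM. The antisense gene 0610005C13Rik overlaps Bcat2 at a mean of 0.195 FPKM, and no source used here gives the strand setting of the counting, so reads of overlapping genes cannot be told apart.

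Hibadh, the valine pathway dehydrogenase, was not called in any comparison (chromosome 6, 52546228 to 52640389). It had 15.9, 13.6, 18.4 and 13.1 FPKM in TL, 12.4, 16.3, 15.4 and 12.9 in TV, and 15.5, 17.0, 13.8 and 16.5 in NTV. The differences were 0.09 ± 0.13 in TL against TV, -0.05 ± 0.13 in TL against NTV and -0.14 ± 0.13 in TV against NTV. The 95% interval of the last was -0.41 to 0.14.

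**Figure D2:**
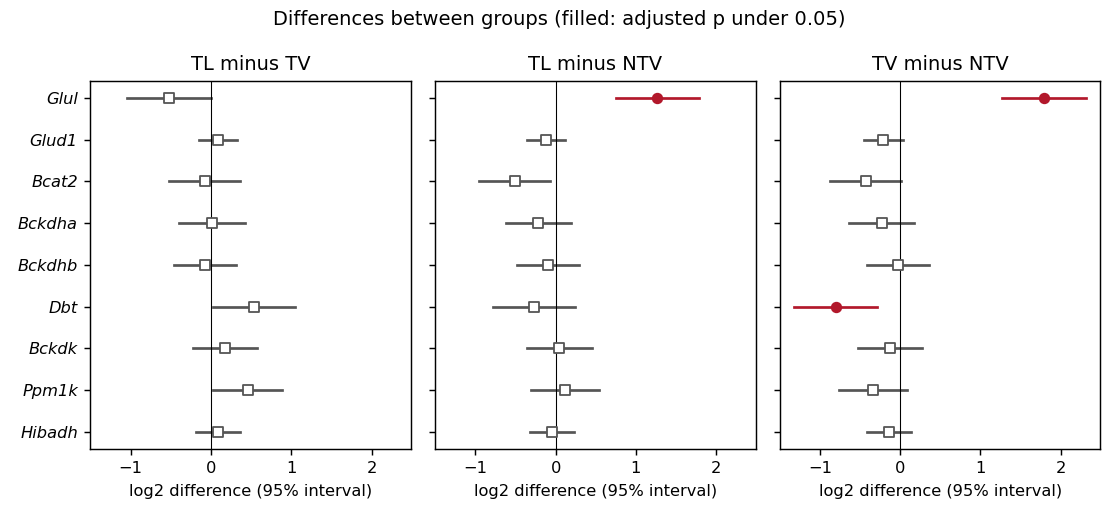
Log2 differences of FPKM + 0.5 with 95% intervals from limma (horizontal axes) for the 9 genes in 3 comparisons. Filled circles have an adjusted p under 0.05: Glul in TL minus NTV and TV minus NTV, and Dbt in TV minus NTV. No gene is filled in TL minus TV.

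Over the 9 genes, limma called 1 higher and 1 lower in TV against NTV, where it called 25.2% of all genes tested (13.8% higher and 11.5% lower), so the share of members called was close to that of all genes. The estimate was below 0 for the other 8 besides Glul, with a median over the 9 of -0.21, against 0.015 over all genes. For TL against NTV 1 was called higher and 0 lower, against 8.81% of all genes (4.19% higher and 4.62% lower), and the median was -0.10 against 0.022. Between TL and TV limma called 0 of the 9, against 0.517% of all genes (0.235% higher and 0.282% lower), and voom on recovered reads also called 0. At an unadjusted p under 0.05 there were 3 of the 9 (Glul, Dbt and Ppm1k), against 2057 of 12754 genes. Groups did not overlap for 2 members in TV against NTV (27.1% of all genes, 14.4% higher and 12.7% lower), 1 in TL against NTV (20.8%, 10.8% higher and 10.1% lower) and 0 in TL against TV (7.42%, 3.36% higher and 4.05% lower).

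Within TL the libraries did not move as one. TL replicates 1 and 5 held the 2 highest TL values for 7 of the 9 genes, the exceptions being Glul, which was highest in TL replicate 4, and Ppm1k. These are the TL libraries that stood apart on principal component 2. Some gaps were small, such as 40.8 against 39.3 FPKM for Bckdk in TL replicates 1 and 7. How many of all genes share this order was not counted, so it cannot be read as particular to these enzymes. Reads of the mitochondrial genome made up 10.1% and 13.9% of all reads in TL replicates 1 and 5 and 6.04% and 6.55% in TL replicates 4 and 7, against 5.08% to 7.70% in TV and 11.6% to 13.5% in NTV. Adipoq, which encodes the adipocyte hormone adiponectin, was at 51.2 and 66.0 FPKM in TL replicates 1 and 5 and at 13.05 and 7.30 in TL replicates 4 and 7, against 11.2 to 33.6 in TV and 3.37 to 16.7 in NTV. The summed level of 9 adipocyte markers was 186 to 1038 FPKM in TL, 238 to 918 in TV and 131 to 378 in NTV, and each of the 9 had a mean above 0 in every group. Of them limma called 1 in TV against NTV (Plin4, higher), where 13.8% of all genes were called higher. It called 0 in TL against NTV (8.81% of all genes), with 4 at an unadjusted p under 0.05 (3506 of 12754 genes). In TL against TV it called 0 (0.517% of all genes), with 0 at an unadjusted p under 0.05 (2057 of 12754 genes). The median difference of the 9 was 1.42 in TV against NTV, 1.38 in TL against NTV and 0.39 in TL against TV. The count in TV against NTV was 6 higher of 9 without the Ucp1-high libraries and 4 higher without TL replicates 1 and 5, and the median in TL against TV was -0.64 in either case. The part of fat tissue in the spread of these enzymes within TL was not tested. In a fit that also held the adipocyte marker mean, Glul differed by 1.74 in TV against NTV (adjusted p = 0.00164) and 1.18 in TL against NTV (adjusted p = 0.0292), and Dbt by -0.91 in TV against NTV (adjusted p = 0.0217). The markers' median itself differed with group, by 1.42 in TV and 1.38 in TL against NTV, so this fit cannot tell fat from tumour.

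**Figure D3:**
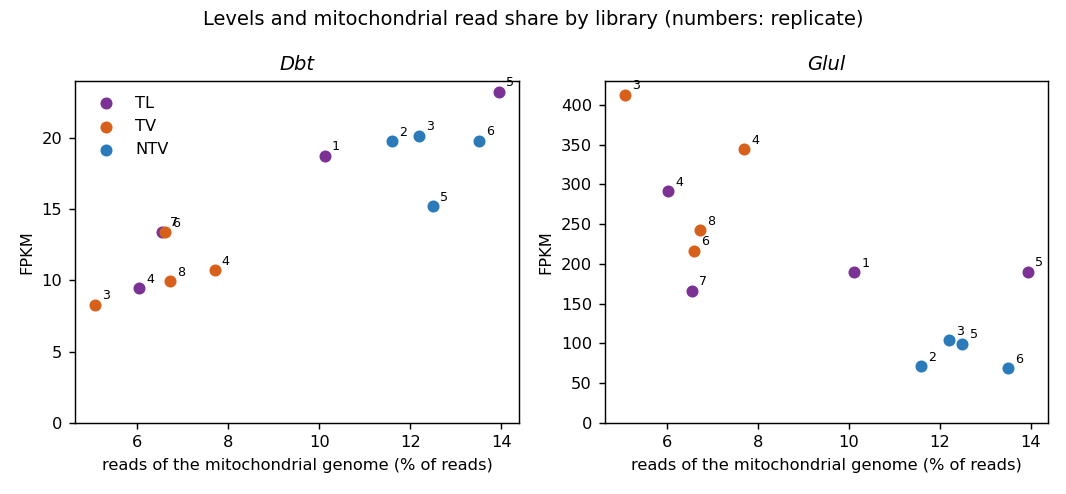
FPKM of Dbt and Glul (vertical axes, from 0) against the share of reads from the mitochondrial genome (horizontal axes, % of all reads) in each of the 12 libraries, coloured by group and marked with the replicate number. TL replicates 1 and 5 lie at 10.1% and 13.9% on the mitochondrial axis, just outside the NTV range of 11.6% to 13.5%, and TL replicates 4 and 7 lie within the TV range; Glul in TL replicates 1 and 5 is above all NTV libraries.

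Markers of other cells in these samples also differed. In TV against NTV, limma called 5 of 6 tendon markers, 4 of 7 fibro-adipogenic progenitor markers and 2 of 7 endothelial markers lower. Over all genes it called 11.5% lower and 13.8% higher. The other tendon marker, Scx, differed by 1.12 ± 0.38 (adjusted p = 0.0505), and voom called 1 tendon marker higher and 5 lower. Without the Ucp1-high libraries the tendon count was 1 higher and 4 lower. Of 6 macrophage, 6 Schwann cell and 5 erythroid markers limma called 0, with 0 at an unadjusted p under 0.05, and of 8 slow or oxidative fibre markers 0, with 1. With TL against NTV, 4 tendon, 2 progenitor and 2 endothelial markers were called lower, and in TL against TV 0 of each. Over all genes, 4.62% and 0.282% were called lower in these comparisons. Of the muscle fibre markers, Des (1.13 ± 0.17) was called higher and Mb, the oxygen-binding protein myoglobin (-1.62 ± 0.40), lower in TV against NTV, and neither was called in TL against NTV or in TL against TV. In bulk muscle RNA, fewer cells of a type and less RNA per cell cannot be told apart, and the part of these markers in the results above was not tested.

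Several other genes tied to branched-chain amino acid breakdown were lower with the tumour. The 22 tested were mostly later enzymes, but also held the carrier Slc25a44 and Dld of the ketoacid dehydrogenase complex itself. They also held Hadha, Hadhb, Acaa2 and Oxct1, which serve fatty acid oxidation or ketone body use. Of the 22, 10 were called lower and 1 higher in TV against NTV (11.5% and 13.8% of all genes). The median was -0.37, against 0.015 over all genes. Oxct1, which activates acetoacetate for ketone body use, had 57.5 ± 12.6 FPKM in TV and 184 ± 25.1 in NTV (-1.69 ± 0.30, adjusted p = 0.00312). Acaa2, Hadhb and Hadha, which also serve fatty acid oxidation, differed by -1.24 ± 0.29, -1.002 ± 0.22 and -0.81 ± 0.20. Hibch, the valine step before Hibadh, had 5.91 ± 0.362 FPKM in TV and 8.75 ± 0.276 in NTV (-0.53 ± 0.10, adjusted p = 0.00417). Dld, the E3 subunit that Dbt's complex shares with other 2-oxoacid dehydrogenases, had 64.2 ± 10.2 FPKM in TV and 97.1 ± 6.63 in NTV (-0.60 ± 0.13, adjusted p = 0.00614). Ivd and Mccc1 of the leucine branch were not called, at -0.57 ± 0.21 (adjusted p = 0.0693) and -0.38 ± 0.15 (adjusted p = 0.0781). The one gene called higher was Slc25a44, the mitochondrial carrier that imports branched-chain amino acids, with 12.04 ± 0.921 FPKM in TV and 9.31 ± 0.395 in NTV (0.35 ± 0.08, adjusted p = 0.00995).

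In TL against TV, limma and voom each called 0 of these 22, where limma called 0.517% of all genes. At an unadjusted p under 0.05 there were 3, against 2057 of 12754 genes. The smallest adjusted p was that of Hibch, at 7.53 ± 1.14 FPKM in TL and 5.91 ± 0.362 in TV (0.31 ± 0.10, adjusted p = 0.175), followed by Dld (0.35 ± 0.13, adjusted p = 0.208). In TL against NTV, Oxct1 was called lower (-1.50 ± 0.30, adjusted p = 0.0132) and Slc25a44 higher (0.35 ± 0.08, adjusted p = 0.0227), and 20 were not called. The shares of all genes were 4.62% lower and 4.19% higher. The call of Slc25a44 in that comparison ended without NTV replicate 2 or 5 or TL replicate 7. Without TL replicates 1 and 5 the count was 7 lower and 0 higher of 22, with a median of -0.39 in place of -0.23, and the median in TL against TV was -0.10 in place of 0.16.

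The complexes most like the branched-chain one fell in TV against NTV in several subunits. Tested were 14 genes of the pyruvate, oxoglutarate and oxoadipate dehydrogenases and their kinases and phosphatases. Dld, shared with the branched-chain complex, is 1 of them and was already counted among the breakdown genes above. Of the 14, 7 were called lower, Dld included, and 1 higher (11.5% and 13.8% of all genes), with a median of -0.58. The E2 genes were among them: Dlat of pyruvate dehydrogenase had 28.2 ± 5.64 FPKM in TV and 57.9 ± 1.72 in NTV (-1.04 ± 0.17), and Dlst of oxoglutarate dehydrogenase 23.9 ± 2.37 in TV and 41.4 ± 1.95 in NTV (-0.78 ± 0.12). Pdhx, which binds E3 in the pyruvate complex, and Pdhb, its E1 beta subunit, differed by -0.79 ± 0.14 and -0.70 ± 0.14. Pdk2, a kinase that inactivates pyruvate dehydrogenase, was the gene called higher (0.36 ± 0.11, adjusted p = 0.0358), a call lost under 2 other scalings, on dropping TV replicate 4 or 6 or NTV replicate 2, 5 or 6, and on dropping the Ucp1-high libraries. Pdk4 was not called in any comparison, with 60.8 ± 33.0 FPKM in TL, 345 ± 329 in TV and 158 ± 89.0 in NTV. Between TL and TV, 0 of the 14 were called by limma or voom, where limma called 0.517% of all genes. At an unadjusted p under 0.05 there were 5, against 2057 of 12754 genes, with Dlat at 0.51 ± 0.17 (adjusted p = 0.194). Dlst was the 1 called lower in TL against NTV (-0.54 ± 0.12, adjusted p = 0.0227), where 4.62% of all genes were. Without TL replicates 1 and 5 the count was 7. The call of Dlst in TL against NTV ended with an equal FPKM total and without NTV replicate 5 or 6 or TL replicate 4 or 7. Of 15 tricarboxylic acid cycle genes, 10 were called lower and 0 higher in TV against NTV (median -0.54), 0 in TL against TV (1 at an unadjusted p under 0.05, 0 by voom) and 1 lower in TL against NTV, Sdhc (6 without TL replicates 1 and 5). In TV against NTV, Sdhb, Sdhd and Sdhc of succinate dehydrogenase differed by -0.79 ± 0.21, -0.68 ± 0.13 and -0.67 ± 0.15, and Idh3a of isocitrate dehydrogenase by -0.78 ± 0.16. The call of Sdhb ended without TV replicate 3 (adjusted p = 0.0525). That of Sdhc in TL against NTV (-0.52 ± 0.15, adjusted p = 0.0498) reached an adjusted p of 0.127 with 1 library left out.

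**Figure D4:**
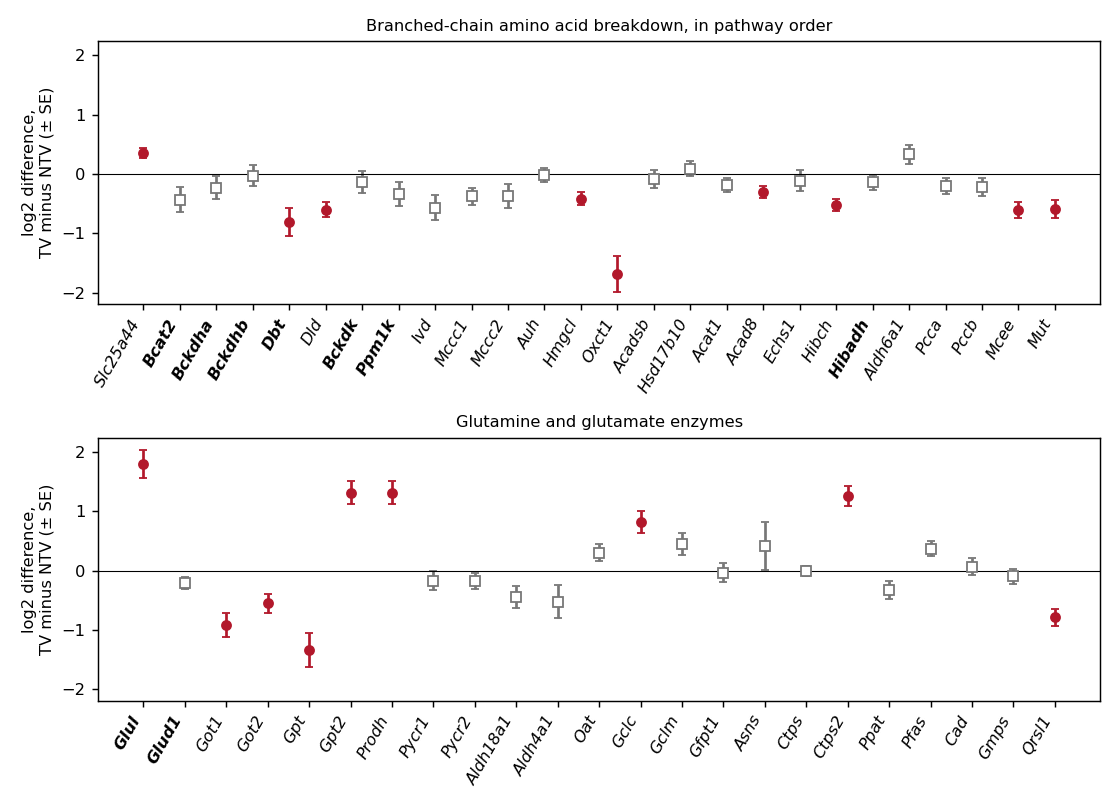
Log2 differences of TV minus NTV (vertical axes, ± SE from limma) for genes of branched-chain amino acid breakdown in pathway order (upper) and for enzymes that make or use glutamine or glutamate (lower). Filled red circles have an adjusted p under 0.05 and bold names are members: Glul at 1.79 and Dbt at -0.81 are the members called.

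Around glutamate, the called enzymes lay in both directions, in numbers close to the shares over all genes. Of 24 tested genes that make or use glutamine or glutamate, 4 were called higher and 4 lower in TV against NTV. The median was -0.04, and of all genes 13.8% were called higher and 11.5% lower. The alanine aminotransferases went opposite ways: the mitochondrial Gpt2 had 75.5 ± 12.5 FPKM in TV and 30.9 ± 9.67 in NTV (1.31 ± 0.20, adjusted p = 0.00172), and the cytosolic Gpt 7.24 ± 2.604 in TV and 18.3 ± 1.12 in NTV (-1.34 ± 0.29, adjusted p = 0.00692). The aspartate aminotransferases both fell, Got1 by 0.92 ± 0.21 on the log2 scale (adjusted p = 0.00894) and Got2 by 0.55 ± 0.16 (adjusted p = 0.0269). Got2 lost its call when TV replicate 3 or 6, or NTV replicate 2, 3 or 6, was dropped (adjusted p up to 0.0657). Prodh, which opens proline breakdown towards glutamate, rose by 1.31 ± 0.20, and Ctps2, which uses glutamine to make CTP, by 1.26 ± 0.17. The other called genes, named after their values were seen together with Got1 and Got2, were Gclc (higher) and Qrsl1 (lower). Asns, asparagine synthetase, had 1.36 ± 0.659 FPKM in TV and 0.864 ± 0.417 in NTV (adjusted p = 0.475).

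Between TL and TV, limma and voom called 0 of these 24 genes, where limma called 0.517% of all genes. At an unadjusted p under 0.05 there was 1, Qrsl1 (0.30 ± 0.14, adjusted p = 0.307), against 2057 of 12754 genes. In TL against NTV 5 were called higher (Gpt2, Prodh, Ctps2, Gclm, Pfas) and 2 lower (Got1, Qrsl1), against 4.19% and 4.62% of all genes. The counts were 5 higher and 0 lower with an equal FPKM total, 3 and 3 without the Ucp1-high libraries, where Prodh, Gclm and Qrsl1 lost their calls, and 5 and 4 by voom. Dropping 1 library took the adjusted p up to 0.0872 for Gclm, 0.0671 for Pfas and 0.125 for Qrsl1. Gpt2 had 58.8 ± 5.69 FPKM in TL and 30.9 ± 9.67 in NTV (0.96 ± 0.20, adjusted p = 0.0152). Prodh and Ctps2 were higher by 1.24 ± 0.20 and 0.99 ± 0.17, and Got1 differed by -0.79 ± 0.21, a call lost with an equal FPKM total and on dropping TL replicate 4 or 7 or any NTV library (adjusted p up to 0.0998).

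Several transporters of glutamine and branched-chain amino acids were higher with the tumour. Of 11 tested, 5 were called higher and 0 lower in TV against NTV (13.8% and 11.5% of all genes), with a median of 0.61. Slc43a1, a carrier of branched-chain and other large neutral amino acids, had 9.59 ± 2.44 FPKM in TV and 2.53 ± 0.426 in NTV (1.71 ± 0.17, adjusted p = 0.000422). Slc38a2, a sodium-coupled carrier of glutamine and alanine, had 33.9 ± 17.0 FPKM in TV and 13.8 ± 3.496 in NTV (1.18 ± 0.30, adjusted p = 0.0155). Slc7a6 and Slc7a8, exchangers that work with the heavy chain Slc3a2, differed by 0.86 ± 0.16 and 0.77 ± 0.23, and that of Slc7a8 was lost on dropping TV replicate 3 or NTV replicate 2 or 6 (adjusted p up to 0.0747). In TL against TV, where 0.517% of all genes were called, Slc43a1 was the one gene of all these lists that was called. It had 3.85 ± 0.340 FPKM in TL and 9.59 ± 2.44 in TV (-1.18 ± 0.17, adjusted p = 0.0157), a call that voom also made, and it ended without TL replicate 1 or 5 (adjusted p up to 0.065). With TL against NTV 1 transporter was called higher, Slc7a8 (0.88 ± 0.23, adjusted p = 0.0351), and 1 lower, Slc38a4 (-0.86 ± 0.22, adjusted p = 0.034), and neither call held without TL replicates 1 and 5. The shares of all genes called in that comparison were 4.19% higher and 4.62% lower. Slc7a8 also lost its call on dropping any 1 library of either group, and Slc38a4 on dropping TL replicate 1, 5 or 7 or NTV replicate 2 or 3.

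Of 10 transcription regulators and glucocorticoid-responsive genes tied to Glul or Bcat2 in the literature, 5 were called higher and 1 lower in TV against NTV. The median was 0.63, and of all genes 13.8% were called higher and 11.5% lower. Klf15, a glucocorticoid-induced factor that raises Bcat2 expression in mouse muscle, had 37.4 ± 6.62 FPKM in TV and 20.2 ± 4.998 in NTV (0.89 ± 0.22, adjusted p = 0.0147). Bcat2 differed by -0.43 ± 0.20 in that comparison (adjusted p = 0.137), and a link between these genes was not tested. In TL Klf15 had 22.4 ± 7.06 FPKM, against 37.4 ± 6.62 in TV (-0.77 ± 0.22, adjusted p = 0.147). Fkbp5, a glucocorticoid-induced co-chaperone, and the forkhead factor Foxo3 differed by 2.41 ± 0.47 and 1.25 ± 0.17 in TV against NTV, and by 2.29 ± 0.47 and 0.75 ± 0.17 in TL against NTV, all called. The call of Foxo3 in TL against NTV ended without NTV replicate 5 or 6. Foxo1 and Myc differed by 1.31 ± 0.40 (adjusted p = 0.0343) and 1.48 ± 0.46 (adjusted p = 0.0349) in TV against NTV, and both calls were lost on dropping TV replicate 3 or 8, any NTV library, or the 3 Ucp1-high libraries together. The count was then 3 higher and 1 lower. Esrra, the estrogen-related receptor alpha, was the gene called lower, at -0.92 ± 0.15 in TV against NTV and -0.53 ± 0.15 in TL against NTV (adjusted p = 0.0498, up to 0.108 with 1 library left out). Of the 10, limma and voom called 0 in TL against TV, where limma called 0.517% of all genes. At an unadjusted p under 0.05 there were 3, against 2057 of 12754 genes.

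Likeness of pattern was measured as the root mean square difference between standardized log2 levels over the 12 libraries, among 9666 protein-coding genes with a mean of at least 1 FPKM. The genes closest to Glul were Spns2 (0.201 SD), Eif4ebp1 (0.216) and Slc25a28 (0.222), where the median gene stood at 1.31. Spns2 averaged 20.7 FPKM in TL, 28.1 in TV and 6.60 in NTV. Closest to Bcat2 were Vegfb (0.279), D10Jhu81e (0.286) and Atp5d (0.291), and closest to Dbt were Smim20 (0.287), Sucla2 (0.319) and Mrpl3 (0.321), with a median gene at 1.37 for both. Vegfb averaged 62.4 FPKM in TL, 60.9 in TV and 85.6 in NTV. All pairs share the same libraries and their scaling. The genes named were picked as the smallest of 9666 distances, so their lying below the median gene follows from the choice.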

How the data were processed

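The study measured poly(A) RNA of gastrocnemius muscle in 12 libraries, 4 each of TL, TV and NTV, primed with random hexamers, per the labels' protocols. The authors deposited 1 table of FPKM with gene positions and lengths. The tools HISAT2 2.05, featureCounts 1.5.0-p3 and DESeq2 and the build mm10 are listed, with no role given, per the submitters' processing notes. Multiplied by gene length, 100% of values came out as whole reads, within 0.1 read. The library scales equal median-of-ratios factors to a relative 7.6e-12, which takes most genes as unchanged.

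Differences were tested on log2(FPKM + 0.5) by limma 3.58.1 (R 4.3.3), fitting group means to all 12 libraries with a variance trend. Genes averaging at least 0.5 FPKM entered, 12754 in all, and p-values were adjusted over them by Benjamini-Hochberg. The added constant understates changes of low genes. Member ratios were tested by exact two-sided permutation of libraries. The script was tested on simulated data first. The members and lists were chosen with earlier results of these data known. By rule, all members are named, and from each list up to 4 called genes with the largest difference per comparison, or up to 2 as values where none was called, with Klf15, Asns, Dld, Bcat1, Mccc1, Ivd, Hibch and Pdk4 always. One further gene of that rule is not reported here. Positions equal those of GENCODE M21 for all 9 members. The alternatives were other pseudocounts, filters, scalings and variance models, the 2 groups alone, the replicate number as a block, voom, an adipocyte covariate and libraries left out. Figures used Python 3.11.15 and matplotlib 3.10.9.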

Additional observations from a re-analysis of the deposited data

Results flagged for a closer look

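Each of the 27 groups of 4 values was checked for a library far from the other 3, and 2 groups held one. Chance flags about 1 in 20 groups. Dbt was at 15.2 FPKM in NTV replicate 5, below the other NTV libraries, of which the nearest was at 19.8, and that library is the one with Ucp1 at 53.4 FPKM. Glud1 was at 42.7 FPKM in NTV replicate 3, above the other NTV libraries, of which the nearest was at 37.6.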

How the results depend on the processing

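Glul kept its direction in TV and in TL against NTV under every alternative. Its calls ended only with the replicate number as a block, a fit with few residual degrees of freedom. The count of members called lower in TV against NTV, 1, was 0 with no filter, 2 with quantile normalization, 2 without the libraries with Ucp1 above 2 FPKM and 0 to 1 with 1 library left out. In TL against NTV it was 1 without the libraries with Ucp1 above 2 FPKM and 1 without TL replicates 1 and 5, the gene being Bcat2. Both exclusions drop the highest TL libraries of Bcat2. The exclusion of TL replicates 1 and 5 and the list counts under alternatives were chosen after seeing the data. Small differences changed sign, and the cause was not tested. With an equal FPKM total, Bckdhb was at 0.0291 in TV against NTV, 0.00742 in TL against TV and 0.0365 in TL against NTV, where Glud1 was at 0.0103 and Hibadh at 0.0831. With totals equalized leaving out mitochondrial genes and the top 50, Bcat2 and Bckdhb in TL against TV were at 0.00986 and 0.0187. With library weights Bckdhb in TV against NTV was at 0.083, and with the adipocyte covariate Bckdha in TL against TV at -0.0587. Both without the libraries with Ucp1 above 2 FPKM and without TL replicates 1 and 5, Glud1, Bckdha and Hibadh in TL against TV were at -0.0547, -0.301 and -0.0839. In TL against NTV, Bckdk and Ppm1k were at -0.117 and -0.185 without the Ucp1 libraries and at -0.0438 and -0.0528 without TL replicates 1 and 5. With 1 library left out, the log2 differences that changed sign ranged from -0.227 to 0.0464 for Bcat2 in TL against TV, -0.158 to 0.138 for Bckdha in TL against TV, -0.198 to 0.0127 for Bckdhb in TL against NTV, -0.171 to 0.0745 for Bckdhb in TL against TV, -0.17 to 0.0636 for Bckdhb in TV against NTV, -0.0278 to 0.159 for Bckdk in TL against NTV, -0.00477 to 0.278 for Bckdk in TL against TV, -0.23 to 0.0527 for Bckdk in TV against NTV, -0.139 to 0.017 for Hibadh in TL against NTV, -0.0033 to 0.154 for Hibadh in TL against TV, -0.0139 to 0.284 for Ppm1k in TL against NTV, -0.229 to 0.00298 for ratio Bckdk over Ppm1k in TL against NTV, -0.118 to 0.0467 for ratio Dbt over Bckdha in TL against NTV.

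With the replicate block, 0 members were called higher and 0 lower in any comparison, and 0 genes in all. Numbers 1, 2, 7 and 8 each stood in 1 library only. The block took up those libraries and left few residual degrees of freedom, so this loss of calls does not bear on these genes in particular. Glul was then at 1.69 in TV against NTV (adjusted p = 0.109) and 1.19 in TL against NTV (adjusted p = 0.322), and Dbt at -0.56 in TV against NTV. Bckdhb was at 0.0368 in TV against NTV, Bcat2 at 0.0756 in TL against TV and Hibadh at 0.0336 in TL against NTV. Libraries with the same number correlated at 0.0142 to 0.133 over genes in their deviations from the group means, and nothing says that a number marks shared animals.

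Over all genes, the 66 calls in TL against TV became 0 without the libraries with Ucp1 above 2 FPKM, 4 without TL replicates 1 and 5, 19 with no filter, 40 with an equal FPKM total, 43 with the adipocyte covariate, 8 with the 2 groups alone, 232 with library weights and 7 to 282 with 1 library left out. The 1123 calls in TL against NTV became 729 with an equal FPKM total, 742 with no filter, 712 without the libraries with Ucp1 above 2 FPKM and 514 to 1160 with 1 library left out. Of the calls in TV against NTV 54.6% were higher, against 36.9% with totals equalized leaving out mitochondrial genes and the top 50. In TL against TV it was 45.5%, against 63.5% with that scaling and 75% with an equal FPKM total. In TL against NTV 47.6% were higher, against 63% with an equal FPKM total, which moved the median of all genes to 0.135.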
